A study of Mus musculus with 6 samples.

Results

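The genes described here make the proteins that repair DNA double-strand breaks and crosslinks. They are 39 of the 24421 gene rows of the count table, taken by symbol from a list of homologous recombination and Fanconi repair genes, and fall into 17 recombination genes, 12 Fanconi genes, 5 checkpoint genes and 5 end-joining genes. RNA was sequenced from bone marrow cells of C57BL/6 mice that lack lineage markers and carry the receptor c-Kit (LK cells), a gate that holds blood stem cells and myeloid, erythroid and megakaryocyte progenitors. There were 3 libraries from ASXL1-MT-KI mice, named for a knocked-in mutant ASXL1, and 3 from wild type littermates. Animals of both groups were 8 to 12 weeks old, and no other allele or agent is given for either group. The labels name neither the locus of the knock-in, nor a promoter or Cre driver, nor the number of animals behind a library. Nothing in them says that libraries of a group came from separate animals, so p-values measure only the spread between these libraries, which may be technical. ASXL1 is a chromatin regulator whose mutations are frequent in myeloid leukaemia and related disorders.

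The repair genes were expressed in every library and differed little between the genotypes. Of the 39, 3 rose in ASXL1-MT-KI cells: Xrcc2 and Palb2, which act in recombination, and Slx4, a nuclease scaffold of the Fanconi pathway. Their folds were 1.30, 1.21 and 1.26. None fell in the main edgeR test, in DESeq2 or in limma-voom, and 1 (Xrcc4) was lower at an unadjusted p under 0.05. The 3 calls are 7.69% of the genes, against 16% of the 13548 genes tested in all, of which 8.29% were called higher and 7.69% lower. In bulk RNA, fewer cells of a type and less RNA per cell cannot be told apart.

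Homologous recombination copies an intact sister chromatid to mend a break. Broken ends are trimmed to single strands, the BRCA1, PALB2 and BRCA2 proteins prepare them to invade the intact copy, and the joined molecules are then resolved. The Fanconi pathway unhooks crosslinked strands by tagging FANCD2 and FANCI with ubiquitin and hands the resulting break to recombination, and its inherited loss (Fanconi anaemia) causes bone marrow failure. Non-homologous end joining seals broken ends directly, and the kinases ATM and ATR signal damage to the cell cycle. Recombination is used in S and G2 phase, and many of its genes are known targets of the E2F factors that drive S phase transcription.

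Libraries held 40462168 to 47579480 gene counts. Values are in CPM (counts divided by the TMM-scaled library size). Reads counted to Asxl1, the gene named in the genotype, came to 324, 327 and 310 CPM in ASXL1-MT-KI libraries 1 to 3, against 176, 170 and 165 CPM in wild type libraries 1 to 3, without overlap (adjusted p = 9.72e-06, from edgeR's quasi-likelihood F test, adjusted by Benjamini-Hochberg over all tested genes). The labelled cell type was checked on 15 progenitor markers, all expressed and together at 16734 to 17404 CPM in ASXL1-MT-KI libraries, against 16204 to 18042 CPM in wild type libraries. Most of the sum is Mpo, which alone took 1.41% to 1.46% of the counts of the ASXL1-MT-KI libraries. Of the 15, 1 rose (Myb) and 4 fell, together 33.3%, against 16% of all tested genes. Flt3, Runx1 and Cd34, 3 of the 4, fell by 0.65, 0.35 and 0.31 on the log2 scale. Kit itself was at 383 ± 11.7 CPM in ASXL1-MT-KI cells and 406 ± 41.0 CPM in wild type cells (SD, n = 3 each). Mature B cell markers summed to 20.3 to 22.8 CPM in ASXL1-MT-KI libraries, against 19.2 to 22.8 CPM in wild type libraries, most of it from Cd79b. Of the 3 B cell markers that could be tested, Cd79a fell by 1.04 on the log2 scale (adjusted p = 0.0128, edgeR). Cd79b (0.22) and the third marker (-1.56) did not pass. All 3 had an unadjusted p under 0.05, and all 3 passed with the replicate number added to the fit as a block (1 higher and 2 lower). Mature T and NK cell markers summed to 6.13 to 8.85 CPM, against 6.96 to 9.12 CPM, with Cd3g and Cd8b1 at 0. Neutrophil and macrophage markers summed to 9.77 to 17.2 CPM, against 8.00 to 14.7 CPM. Late red cell markers were higher, at 33.4 to 37.1 CPM in ASXL1-MT-KI libraries, against 16.8 to 27.7 CPM in wild type libraries, with Hbb-b1 and Hba-a1 at 0, and Slc4a1 among them rose by 1.10 on the log2 scale. Stromal and endothelial markers had a lower sum, at 30.9 to 33.1 CPM, against 35.8 to 42.3 CPM. Of them 5 could be tested, and all 5 had a log2 fold change below 0. None passed or had an unadjusted p under 0.05 in edgeR. With the replicate block 8 of the 15 progenitor markers passed (3 higher and 5 lower), beside 30.5% of all tested genes. Of 3 tested T and NK cell markers, 0 passed without the block and 2 with it (1 higher and 1 lower). Of 6 tested neutrophil and macrophage markers, 0 passed without it and 3 with it, all higher. Of 3 tested late red cell markers, 1 passed without it and 2 with it, all higher. No stromal or endothelial marker passed with it. The part of these shifts in the results for repair genes was not tested.

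The 39 genes together took 1725, 1840 and 1774 CPM in ASXL1-MT-KI libraries 1 to 3, against 1682, 1695 and 1687 CPM in wild type libraries 1 to 3. All 3 ASXL1-MT-KI sums lay above all wild type sums. The log2 fold changes had a median of 0.10, against 0.00 over all tested genes. They were above 0 for 32 of the 39 (82.1%), against 50.2% of all genes, and for 37 with scaling to total counts, where the median of all genes was 0.05. Lists of related genes had shares of 90% (27 of 30 G2 and M phase genes), 72.3% (68 of 94 other pathway genes) and 47.5% (19 of 40 S phase genes). The range was narrow, from -0.25 for Xrcc4 to 0.52 for Lig4. In 16 of the 39 the libraries of the groups did not overlap (15 higher and 1 lower), or 41.0%, against 35.2% of all tested genes. Of all tested genes 18.0% lay higher and 17.2% lower without overlap. An unadjusted p under 0.05 was reached by 28.2% of the 39 and 30.4% of all genes. The 95% interval of the fold change stayed within 1.5-fold in either direction for 37 of the 39, the exceptions being Rmi1 and Lig4, and for 68.5% of all tested genes. With the replicate number added to the fit as a block, 8 of the 39 passed (7 higher and 1 lower), or 20.5%, beside 30.5% of all genes.

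**Figure D1:**
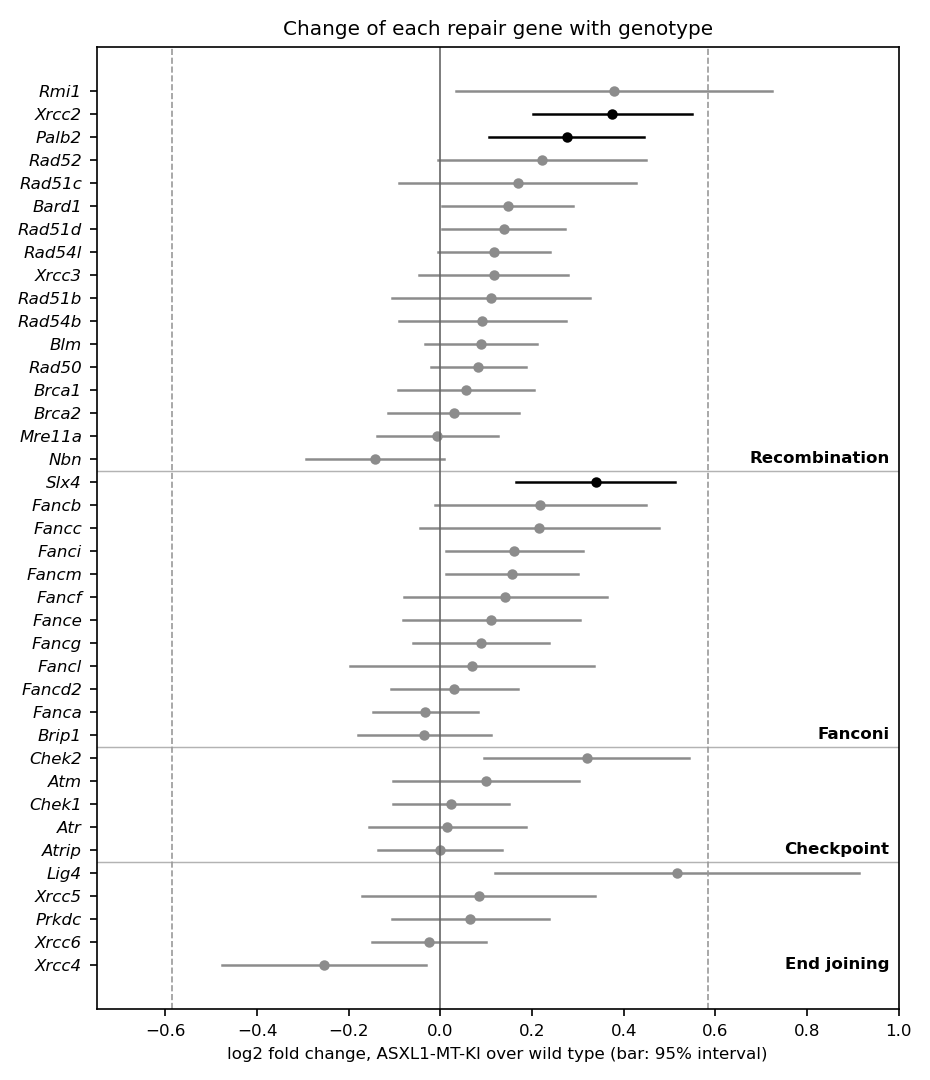
Log2 fold change of each of the 39 genes (ASXL1-MT-KI over wild type, points) with its 95% interval (bars), grouped by role; black marks the 3 genes past an adjusted p of 0.05 and dashed lines mark a change of 1.5-fold. Only the intervals of Rmi1 and Lig4 cross a dashed line.

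Words of the E2F type were about as frequent in the promoters of these genes as in those of S phase genes. RefSeq windows of 300 bases (250 before and 50 after the start, build GRCm38.p6) were matched for 32 of the 39 by symbol, taking the window listed first where a gene had several. A word of the E2F type (the letters TTGGCGC, else TTCCCGC, else TTCGCGC, else TTGCCGC, on either strand) was found in 19 of the 32 (59.4%), against 9.69% of 27025 gene promoters. Of 32 S phase promoters 62.5% held one, and of 27 G2 and M phase promoters 22.2%. By role the share was 58.3% of 12 recombination genes, 54.5% of 11 Fanconi genes, 60.0% of 5 checkpoint genes and 75.0% of 4 end-joining genes. The word CCAAT, on either strand, was found in 65.6% of the 32, against 37.9% of all promoters. The CHR words TTTGAA and TTCGAA, which mark many G2 and M phase promoters, were found in 6.25% of the 32, in 77.8% of the G2 and M phase promoters and in 19.4% of all. CCAAT read on the other strand ends in TTGG and can overlap TTGGCGC, which happened at 1 place, in Fancf. For 4 of the 32 (Fancc, Fancl, Slx4 and Xrcc6) the window starts over 500 bases from the first base of the GENCODE gene, 2092 bases inside it for Slx4. A word is a description of the sequence and shows no binding.

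The windows printed here carry the range seen: Brca1 (chr11:101551906-101552205, minus strand) with an E2F word 21 bases after the start, Fancm (chr12:65075353-65075652, plus strand) with 2 of them, Chek2 (chr5:110839733-110840032, plus strand) with 1 E2F word and 2 CCAAT words, Xrcc3 (chr12:111813830-111814129, minus strand) with 6 CCAAT words and no E2F word, and Palb2 (chr7:122132897-122133196, minus strand), which rose and has no E2F word. They run 5′ to 3′ on the gene's strand, in capitals where an E2F or CCAAT word lies on either strand.
Brca1: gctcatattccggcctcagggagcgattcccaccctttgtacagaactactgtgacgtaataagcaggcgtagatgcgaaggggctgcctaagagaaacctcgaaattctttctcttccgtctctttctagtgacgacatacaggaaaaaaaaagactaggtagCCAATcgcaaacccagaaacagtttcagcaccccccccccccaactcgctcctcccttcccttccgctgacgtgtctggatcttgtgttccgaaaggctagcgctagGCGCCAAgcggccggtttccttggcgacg
Fancm: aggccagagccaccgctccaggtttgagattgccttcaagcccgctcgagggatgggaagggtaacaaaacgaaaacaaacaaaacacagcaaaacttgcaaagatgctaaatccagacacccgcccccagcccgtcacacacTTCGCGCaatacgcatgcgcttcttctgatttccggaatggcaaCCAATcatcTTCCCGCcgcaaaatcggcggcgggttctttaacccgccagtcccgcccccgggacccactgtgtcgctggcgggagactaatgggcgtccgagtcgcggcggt
Chek2: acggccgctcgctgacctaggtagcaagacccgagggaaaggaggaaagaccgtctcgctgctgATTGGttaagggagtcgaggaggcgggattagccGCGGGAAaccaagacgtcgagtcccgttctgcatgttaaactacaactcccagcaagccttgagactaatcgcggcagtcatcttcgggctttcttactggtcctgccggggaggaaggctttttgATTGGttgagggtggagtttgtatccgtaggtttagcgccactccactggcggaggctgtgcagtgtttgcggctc
Xrcc3: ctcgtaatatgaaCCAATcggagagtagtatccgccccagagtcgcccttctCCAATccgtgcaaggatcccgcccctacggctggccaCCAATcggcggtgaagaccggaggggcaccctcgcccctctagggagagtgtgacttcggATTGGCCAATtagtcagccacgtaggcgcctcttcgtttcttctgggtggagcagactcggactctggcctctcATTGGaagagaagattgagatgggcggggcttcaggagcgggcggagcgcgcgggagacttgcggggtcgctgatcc
Palb2: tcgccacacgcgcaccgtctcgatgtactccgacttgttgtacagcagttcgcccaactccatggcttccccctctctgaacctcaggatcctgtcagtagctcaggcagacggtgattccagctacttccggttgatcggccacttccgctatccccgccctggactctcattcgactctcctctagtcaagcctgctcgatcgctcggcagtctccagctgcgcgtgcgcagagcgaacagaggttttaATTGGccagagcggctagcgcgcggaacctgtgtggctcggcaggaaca

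The difference in change between the genes with and without an E2F word was not tested. The 19 genes with one had a median log2 fold change of 0.14 (range -0.25 to 0.52), and the 13 without had a median of 0.11 (range -0.03 to 0.34). None of the 19 and 2 of the 13 (Palb2 and Slx4) rose, beside 8.29% of all tested genes. The windows of Slx4, Fancc and Fancl, all counted as without an E2F word, start over 500 bases from the first base of the gene. So does that of Xrcc6, counted as with one. In wild type cells the median level was 6.10 CPM per kilobase of exon with an E2F word and 5.67 without.

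**Figure D2:**
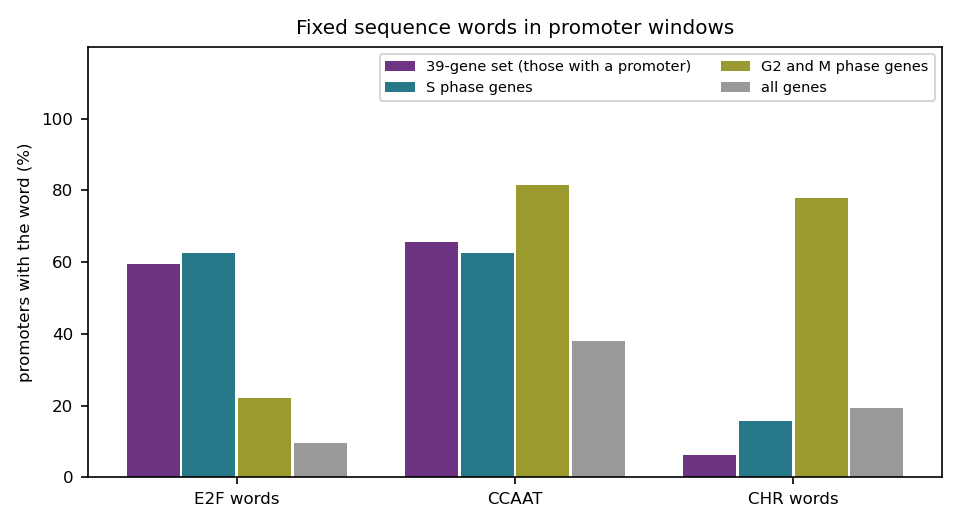
Share of promoter windows that hold an E2F word, CCAAT or a CHR word (bars, in percent), for the 32 repair genes with a window, the S phase genes, the G2 and M phase genes and all genes. E2F words were in 59.4% of the repair gene windows, 62.5% of the S phase windows and 9.69% of all.

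Per kilobase of annotated exon the genes spanned a wide range of levels. Rad50, the ATPase of the break-sensing MRN complex, was the highest at 27.4 CPM per kilobase in ASXL1-MT-KI cells, against 25.9 in wild type cells. Its partner Nbn followed with 22.4, against 24.7, then the Ku subunit gene Xrcc6 with 20.6, against 21.0. Lig4, the ligase of end joining, was the lowest at 0.520, against 0.363, and Rad51c the next at 1.30, against 1.15. The median of the 39 was 6.81 CPM per kilobase in ASXL1-MT-KI cells, against 6.10 in wild type cells. In wild type cells Rad50 stood at percentile 83.4 of all tested genes, Brca1 at 60.5, Brca2 at 54.2 and Lig4 at 14.0. Checkpoint genes lay between 3.64 (Atr) and 11.9 (Chek1) in ASXL1-MT-KI cells, against 3.60 and 11.7 in wild type cells. The length used is that of all annotated exons of a gene merged, 23629 bases for Atr and 4635 for Chek1. The order of the genes depends on it. Not divided by length, Atr was at 86.0 CPM and Chek1 at 55.1 CPM in ASXL1-MT-KI cells. Single genes had 67 to 6992 counts per library. The standard error of the log2 fold change was largest for Lig4 (0.177) and Rmi1 (0.150).

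**Figure D3:**
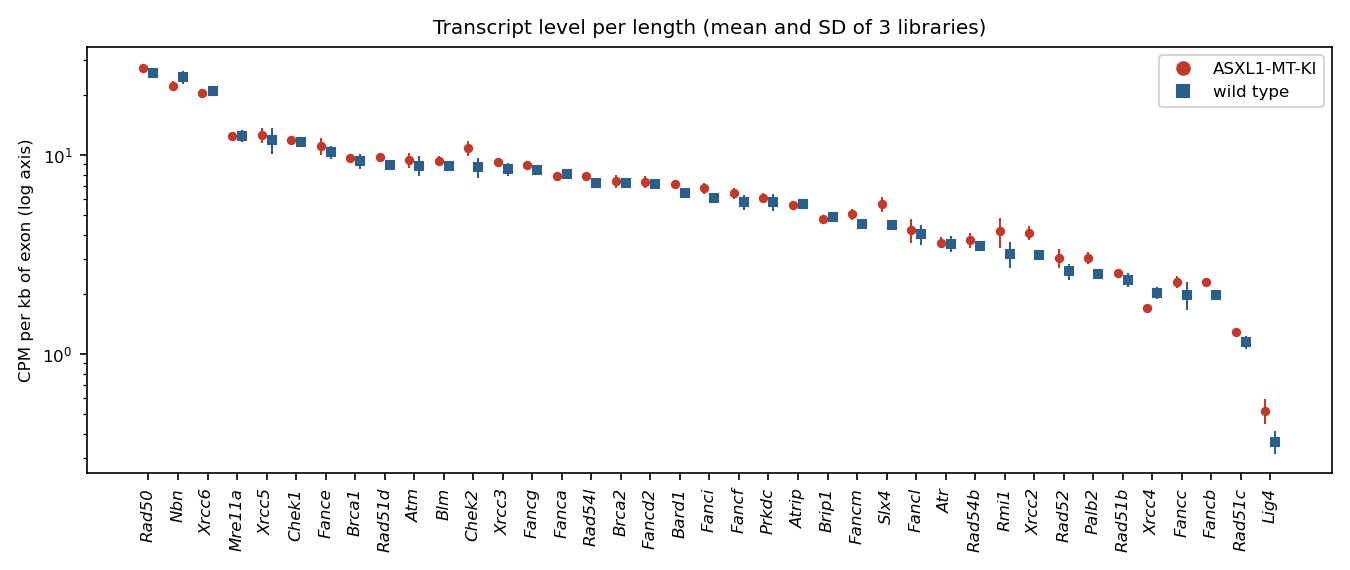
Level of each gene in CPM per kilobase of exon (log axis), as the mean and SD of 3 ASXL1-MT-KI libraries (circles) and 3 wild type libraries (squares), ordered by the wild type level. The order runs from Rad50 (27.4 in ASXL1-MT-KI and 25.9 in wild type cells) to Lig4 (0.520 and 0.363).

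Among recombination genes, Rad51b, Rad51c, Rad51d, Xrcc2 and Xrcc3 form a family whose proteins act in complexes that promote strand exchange. Xrcc2 had 19.6, 21.3 and 22.9 CPM in ASXL1-MT-KI libraries, against 16.4, 16.2 and 16.6 CPM in wild type libraries. Every ASXL1-MT-KI library lay above every wild type library. The log2 fold change was 0.37 ± 0.0771 (SE; adjusted p = 0.011, edgeR), and Xrcc2 passed in each of the 16 alternative fits made of the data. It lies on chromosome 5 from 25689812 to 25705825 (GRCm38), and no RefSeq promoter was matched for it. The other family members did not pass. Rad51d had 36.7, 36.1 and 37.1 CPM, against 31.7, 33.6 and 34.6 CPM in wild type libraries (log2 fold change 0.14, adjusted p = 0.157), also without overlap. Rad51b (0.11), Rad51c (0.17) and Xrcc3 (0.12) had fold changes of like size, and only Xrcc3 overlapped between the groups.

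Palb2, whose protein bridges BRCA1 and BRCA2, had 20.7, 23.0 and 23.7 CPM in ASXL1-MT-KI libraries, against 18.0, 18.4 and 19.2 CPM in wild type libraries. The groups did not overlap, at a log2 fold change of 0.28 ± 0.0756 (SE; adjusted p = 0.0362, edgeR). The call was lost on leaving out ASXL1-MT-KI replicate 2 (adjusted p = 0.137) or 3 (0.112), wild type replicate 1 (0.127) or 2 (0.0786), or number 3 of both groups (0.0591). The genes of the 2 proteins that it bridges had other values. Brca1 was at 80.9, 83.3 and 85.4 CPM, against 76.3, 88.2 and 75.6 CPM in wild type libraries, with full overlap and a 95% interval of the log2 fold change from -0.09 to 0.20. Brca2 was at 99.5, 109 and 94.0 CPM, against 102, 94.5 and 100 CPM, with an interval from -0.11 to 0.17. Bard1, which pairs with BRCA1 in a ubiquitin ligase, was at 37.8, 42.1 and 41.4 CPM, against 36.5, 37.5 and 35.5 CPM. Its groups did not overlap, and it did not pass (log2 fold change 0.15, adjusted p = 0.153).

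The nuclease and sensor complex MRN went both ways within a small range. Rad50 was at 146, 151 and 145 CPM in ASXL1-MT-KI libraries, against 137, 143 and 137 CPM in wild type libraries (log2 fold change 0.08, adjusted p = 0.266). Nbn, which links the complex to ATM, was at 60.0, 56.2 and 53.9 CPM, against 63.2, 66.6 and 57.8 CPM. The Nbn groups overlapped and the log2 fold change was -0.14 (adjusted p = 0.188, edgeR), a difference that passed with the replicate block (adjusted p = 0.0452). Mre11a, the nuclease gene, had a log2 fold change of -0.01, positive with scaling to total counts (0.05) and without ASXL1-MT-KI replicate 3 or wild type replicate 1 or 2. The translocase genes Rad54l (0.12) and Rad54b (0.09), the helicase gene Blm (0.09) and Rad52 (0.22), whose protein anneals single strands, were slightly higher and did not pass. Rmi1, which acts with BLM on joined molecules, varied widely between libraries, at 21.8, 30.3 and 29.6 CPM in ASXL1-MT-KI cells, against 23.1, 17.4 and 22.3 CPM in wild type cells. Its log2 fold change of 0.38 had an interval from 0.03 to 0.72, did not pass in edgeR (adjusted p = 0.132) and passed in DESeq2 (adjusted p = 0.0466) and without ASXL1-MT-KI replicate 1 (0.0264). With the replicate block its adjusted p was 0.312.

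**Figure D4:**
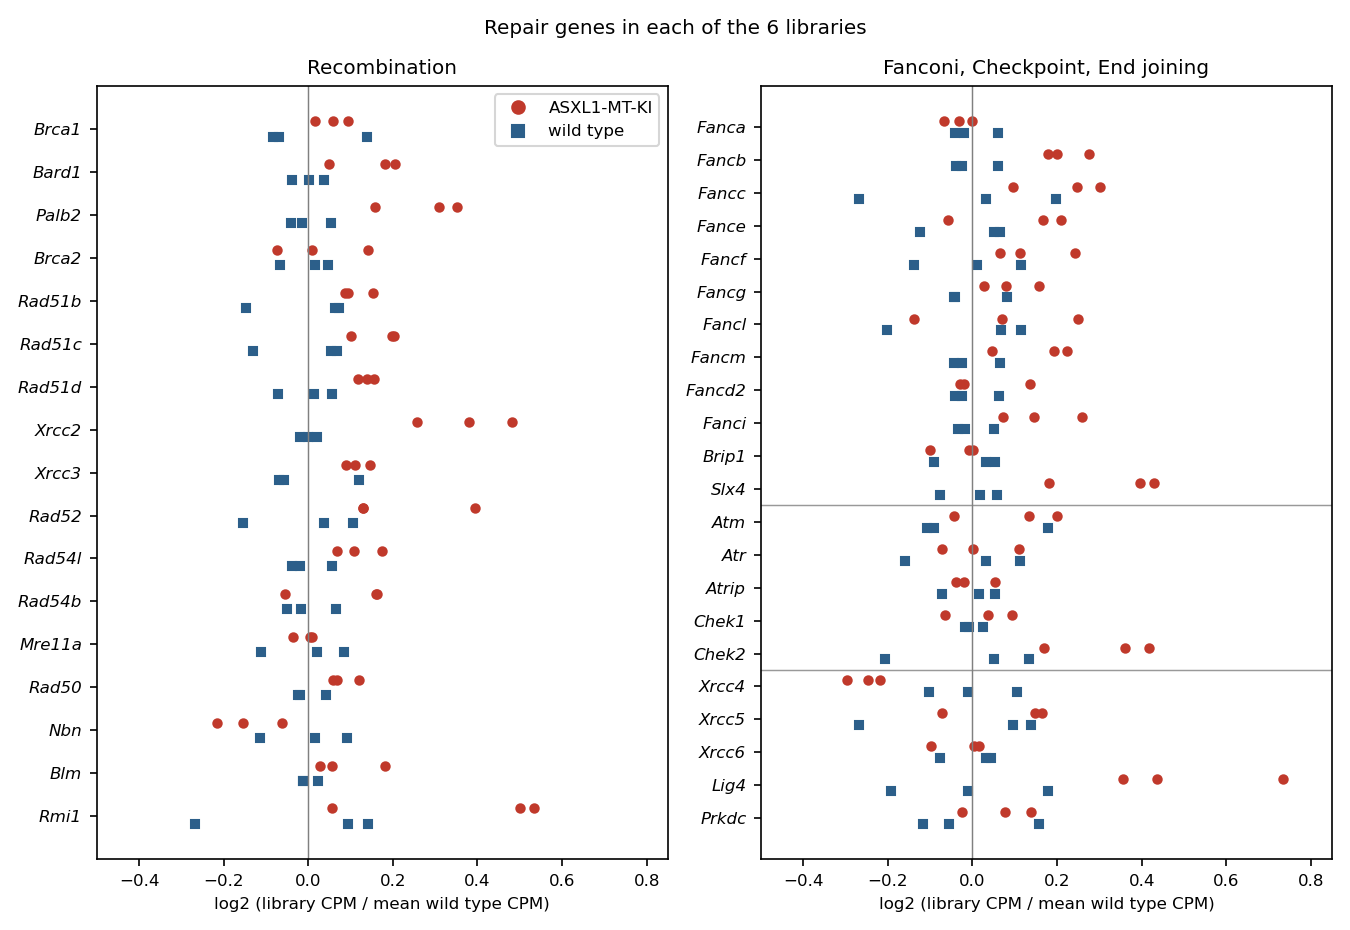
CPM of each gene in each library, as the log2 ratio to the wild type mean of that gene, for 3 ASXL1-MT-KI libraries (circles, upper row of each gene) and 3 wild type libraries (squares, lower row). For Xrcc2, Palb2 and Slx4 every circle lies to the right of every square, while Brca1, Brca2 and Atr overlap.

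In the Fanconi group 1 of 12 genes rose. Slx4, the scaffold that holds structure-specific nucleases at crosslinks, had 38.9, 46.2 and 45.2 CPM in ASXL1-MT-KI libraries, against 32.6, 35.7 and 34.7 CPM in wild type libraries. The groups did not overlap (log2 fold change 0.34 ± 0.0772, SE; adjusted p = 0.017, edgeR). Its gene runs from 3979105 to 4003770 on chromosome 16, and it no longer passed when ASXL1-MT-KI replicate 2 (adjusted p = 0.081), ASXL1-MT-KI replicate 3 (0.0511) or wild type replicate 1 (0.0784) was left out. Fancm, whose translocase anchors the core complex, had 48.9, 55.3 and 54.1 CPM, against 45.9, 49.5 and 46.5 CPM. The groups overlapped, with a log2 fold change of 0.16 (adjusted p = 0.132, edgeR; with the replicate block, adjusted p = 0.031).

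The genes of the core ubiquitin ligase had small differences that did not pass. Fanca (log2 fold change -0.03, 0.02 with total counts), Fance (0.11), Fancf (0.14), Fancg (0.09) and the ligase subunit Fancl (0.07, and below 0 without ASXL1-MT-KI replicate 2 or wild type replicate 3) overlapped between the groups. Fancb, on the X chromosome, was at 6.69, 6.79 and 7.16 CPM, against 6.17, 5.76 and 5.81 CPM, without overlap (log2 fold change 0.22, adjusted p = 0.187, edgeR). Fancc was at 19.8, 20.5 and 17.8 CPM, against 19.1, 17.0 and 13.8 CPM, and passed with the replicate block alone of these core genes (adjusted p = 0.246 without it, 0.04 with it, and 0.0964 with the block and a correction for GC content and length). The ubiquitinated pair were Fancd2, at 56.1, 62.8 and 56.4 CPM, against 59.8, 56.3 and 55.6 CPM, and Fanci, at 38.9, 42.1 and 37.0 CPM, against 36.5, 34.3 and 34.8 CPM. Fancd2 overlapped and Fanci did not, and neither passed (adjusted p = 0.793 and 0.137, edgeR). Brip1, the helicase that works with BRCA1, had a log2 fold change of -0.03 (0.02 with total counts) and an interval from -0.18 to 0.11.

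No checkpoint gene of the 5 passed in edgeR or limma-voom, with 1 at an unadjusted p under 0.05 and 1 in DESeq2. That gene is Chek2, the effector kinase of ATM, at 29.4, 33.6 and 34.9 CPM in ASXL1-MT-KI libraries, against 22.6, 28.7 and 27.1 CPM in wild type libraries. The groups did not overlap, and the log2 fold change was 0.32 (adjusted p = 0.0595, edgeR; 0.00107 with the replicate block, 0.0262 in DESeq2, 0.0449 with total counts, 0.0371 with no filter and 0.0437 without wild type replicate 2). Chek1, the effector kinase of ATR, was at 51.8, 55.6 and 57.8 CPM, against 55.2, 53.6 and 53.9 CPM, with an interval of the log2 fold change from -0.10 to 0.15. Atm was at 88.7, 100 and 105 CPM, against 85.0, 86.0 and 104 CPM (log2 fold change 0.10, adjusted p = 0.5). Atr and its partner gene Atrip had intervals from -0.16 to 0.19 and from -0.14 to 0.13. Overlap was complete for both.

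No end-joining gene of the 5 passed in edgeR, DESeq2 or limma-voom, and 2 had an unadjusted p under 0.05, in opposite directions. They make the partners of 1 complex, the ligase LIG4 and its scaffold XRCC4. Lig4 had 116, 142 and 106 counts in ASXL1-MT-KI libraries, against 86, 98 and 67 counts in wild type libraries, or 2.42, 3.14 and 2.56 CPM, against 1.87, 2.14 and 1.65 CPM. Xrcc4 had 6.98, 7.37 and 7.23 CPM in ASXL1-MT-KI libraries, against 8.52, 9.22 and 7.98 CPM in wild type libraries. Neither pair of groups overlapped, Lig4 lying above and Xrcc4 below wild type. The log2 fold changes were 0.52 ± 0.177 (SE; adjusted p = 0.0796, edgeR; 0.0231 with the block) and -0.25 ± 0.0993 (SE; adjusted p = 0.117, edgeR; 0.0603 with the block and 0.0433 with the block and the GC and length correction). The Ku genes Xrcc5 and Xrcc6, which bind broken ends, had log2 fold changes of 0.08 and -0.03, the first negative without wild type replicate 3 and the second positive with total counts. Prkdc, the kinase that Ku recruits, was at 75.5, 81.0 and 84.5 CPM, against 70.8, 73.9 and 85.6 CPM, with overlap.

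Some of the spread followed the replicate number. Number 3 differed from numbers 1 and 2 in the same direction in both genotypes for 30 of the 39 genes (16 lower, 14 higher). The same share over all tested genes was not computed. Across all tested genes, deviations of the libraries numbered 3 from their group means correlated at 0.39, a value that does not give this share. Xrcc5 was at 29.0 CPM in ASXL1-MT-KI library 3, against 34.1 and 33.7 CPM in libraries 1 and 2 of that genotype, and at 25.3 CPM in wild type library 3, against 32.6 and 33.5 CPM. On the log2 scale, Fancl was lower in number 3 by -0.30 in ASXL1-MT-KI and -0.29 in wild type cells, and Fancc by -0.18 and -0.38. Atm was higher in number 3 by 0.15 and 0.28, and Prkdc by 0.11 and 0.24. The median absolute genotype difference of the 39 genes was 0.11. With number 3 of both groups left out, 2 of the 39 (Xrcc2 and Slx4) passed, beside 17.8% of all tested genes.

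Some of the repair genes lie head to head with another gene. For 14 of the 39, GENCODE places the start of a gene on the other strand within 1000 bases upstream, and 13 of these neighbours were tested. The share of all genes with such a neighbour was not computed. The background share of genes called was 16%. Of the 13, 2 rose and 1 fell, in each case beside a repair gene that did not pass. Zfyve21, 297 bases from Xrcc3, had 6.67, 7.26 and 7.42 CPM in ASXL1-MT-KI libraries, against 4.40, 4.27 and 4.93 CPM in wild type libraries, and the groups lay well apart. Its log2 fold change was 0.65 ± 0.115 (SE; adjusted p = 0.00524, edgeR), against 0.12 for Xrcc3. Npat, 307 bases from Atm and known as an activator of histone genes in S phase, had 48.1, 47.9 and 49.7 CPM, against 59.1, 55.4 and 59.8 CPM. It fell by 0.26 on the log2 scale (adjusted p = 0.0111, edgeR), a call lost without ASXL1-MT-KI replicate 2 or wild type replicate 1 (adjusted p up to 0.0533), while Atm had a log2 fold change of 0.10. Brip1os, a non-coding gene 177 bases from Brip1, rose by 0.19 (adjusted p = 0.0369, edgeR), a call lost on leaving out any of 5 libraries, wild type replicate 2 excepted (adjusted p up to 0.177). Dctn5, 56 bases from Palb2, had 49.0, 47.8 and 47.9 CPM, against 39.9, 45.1 and 40.6 CPM, without overlap. Its log2 fold change was 0.20 (adjusted p = 0.0528, edgeR). With the replicate block Dctn5 passed (adjusted p = 0.0115, edgeR), beside Palb2, which passed with and without the block. Mcm4, a replication helicase gene 466 bases from Prkdc, and Nbr1, 194 bases from Brca1, had log2 fold changes of -0.05 and 0.06 and did not pass. The difference between a repair gene and its neighbour was not tested.

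**Figure D5:**
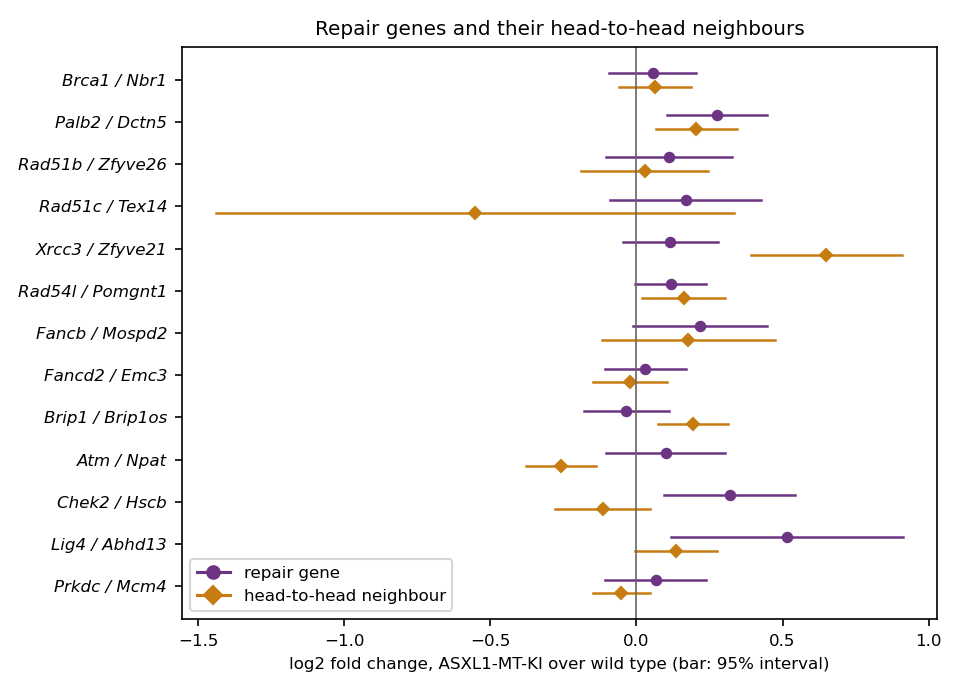
Log2 fold change (ASXL1-MT-KI over wild type, points) with its 95% interval (bars) for 13 repair genes (circles) and the gene that lies head to head with each (diamonds). Zfyve21, Npat and Brip1os have intervals away from 0 beside Xrcc3, Atm and Brip1, whose intervals include 0. Dctn5 and Pomgnt1, beside Palb2 and Rad54l, also have intervals above 0 and did not pass the adjusted threshold in the main test. Dctn5 passed with the replicate block.

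Of 94 other genes of the same pathways, all tested, 13 rose and 3 fell, together 17.0%. Of all tested genes 16% were called, 8.29% higher and 7.69% lower. With the replicate block 20 of the 94 rose and 4 fell, together 25.5%, beside 30.5% of all tested genes. The median log2 fold change of the 94 was 0.07. In recombination 6 of 35 rose and 2 fell, together 22.9%. Fignl1, an ATPase gene that acts in recombination, had 73.1, 81.1 and 76.9 CPM in ASXL1-MT-KI libraries, against 56.7, 63.6 and 55.1 CPM in wild type libraries (log2 fold change 0.40, adjusted p = 0.00436, edgeR). Dmc1, the meiotic recombinase, had 3.69, 2.81 and 3.28 CPM, against 1.81, 1.70 and 1.68 CPM, an edgeR fold change of 0.91 on the log2 scale ( adjusted p = 0.0054, edgeR). Both calls held on leaving out each library. The helicase and nuclease genes Helq (0.27), Wrn (0.28), Dna2 (0.19) and Mus81 (0.26) rose and Sfr1 (-0.26) and Mcm9 (-0.27) fell, all of them calls lost on leaving out any of 4 or 5 libraries, with adjusted p up to 0.185.

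In the wider Fanconi list 4 of 18 (22.2%) rose, against 8.29% of all tested genes and 8.33% of the 12 Fanconi genes above. The lists were chosen with earlier results of these data known, and the difference in share was not tested. None fell in edgeR, where an unadjusted p under 0.05 was also reached by none of the lower ones. Faap24, a partner of FANCM, rose by 0.48 on the log2 scale, the nuclease gene Fan1 by 0.46, the nuclease gene Dclre1a by 0.44 and Ube2t, the enzyme that passes ubiquitin to FANCD2, by 0.39 (adjusted p = 0.00968 to 0.0416, edgeR). The Faap24 call was lost without wild type replicate 1 (adjusted p = 0.0535) and the Fan1 call without ASXL1-MT-KI replicate 2 (0.0585). The Dclre1a call was lost without either of these libraries (up to 0.0575), and the Ube2t call without any library but wild type replicate 2 (up to 0.147). Of 23 other checkpoint genes 2 (8.70%) rose, Rad1 (0.31) and Rad9a (0.28), which encode parts of 1 clamp. Both calls were lost on leaving out any of 4 libraries (adjusted p up to 0.118, edgeR). Of 18 other end-joining genes 1 rose and 1 fell, together 11.1%. Dntt, the terminal transferase of early lymphoid cells, had 864, 1140 and 1131 counts in ASXL1-MT-KI libraries, against 2629, 1867 and 2535 counts in wild type libraries. It fell by 1.19 (adjusted p = 0.0163, edgeR) but did not pass with the replicate block (adjusted p = 0.0935), with number 3 left out or without ASXL1-MT-KI replicate 2 or wild type replicate 1 or 3 (up to 0.0993). Polq, the polymerase of alternative end joining, rose by 0.22, a call lost on leaving out any library but wild type replicate 2 (adjusted p up to 0.164).

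Cell cycle genes are set beside these values because recombination genes are transcribed with them. Of 40 S phase genes 2 rose and 2 fell, with a median log2 fold change of -0.0042 (0.05 with total counts) and a summed level of 7018 to 7121 CPM in ASXL1-MT-KI libraries, against 6942 to 7347 CPM in wild type libraries. Of 30 G2 and M phase genes 1 rose (Ncapg, a condensin subunit gene, a call lost without ASXL1-MT-KI replicate 2, at an adjusted p of 0.076), with a median of 0.09 (0.01 without wild type replicate 3) and a summed level of 4586 to 5190 CPM, against 4173 to 5065 CPM. The sums of both lists overlapped between the genotypes. With the replicate block 5 S phase genes rose and 5 fell (25.0% of the list), and 11 G2 and M phase genes rose (36.7%), beside 30.5% of all tested genes, of which 16.7% rose. Only Dtl of the 4 S phase calls held on leaving out each library.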

How the data were processed

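Total RNA (200 ng) was made into libraries with a NEBNext kit and read as paired ends of 124 bp, per the labels' protocols. HISAT2 2.0.4 and mm10 are named in the submitters' processing notes. How reads were counted, with which annotation and strand setting, was not given in the sources used here. Raw counts per gene symbol for 6 libraries were deposited by the authors, as whole numbers that had not been normalized. For 15 of the 39 genes exons overlap those of another gene in the table, so their counts are uncertain. The overlap is on the same strand for Rad54b with Fsbp (2068 bases) and Atrip with Trex1 (1147 bases). It is on the other strand for Rad54l with Lrrc41, Fanca with Zfp276, Rmi1 with Hnrnpk (330 bases) and others.

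The test was edgeR 4.0.16 (R 4.3.3) on all genes kept by filterByExpr with a minimum of 10 counts: TMM scaling, robust quasi-likelihood F test, genotype as the only term, Benjamini-Hochberg adjustment over 13548 genes at 0.05. Standard errors are the log2 fold change divided by the square root of F. Alternatives used DESeq2 1.42.0 and limma 3.58.1, other scalings and filters, and libraries left out. Lengths and coordinates are GENCODE M21 (GRCm38, the assembly mm10 names). Figures used matplotlib 3.10.9. The pipeline was tested on simulated data. Values of some genes are not reported here. The members and lists were chosen with earlier results of these data known. Full values are given for genes that passed and for the 2 genes of lowest p in each role where fewer than 2 passed; Rmi1, Nbn, Fancb, Fancc and others were named after their values were seen.

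Replicate numbers come from the titles. Deviations from the group mean correlated across genes at 0.25, 0.16 and 0.39 between libraries of the same number. All lay above the level of 0.1 that was taken to show pairing. Values with the replicate block are therefore given for each repair gene whose call they change. For the other pathway genes, cell type markers and cell cycle genes, counts of calls with the block are given. Not every gene of those lists whose call changed is named. No label says what a number marks. ASXL1-MT-KI library 1 and wild type library 2 also correlated, at 0.16.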

Additional observations from a re-analysis of the deposited data

How the results depend on the processing

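With the replicate block 4132 genes, 8 of the 39, 10 S phase and 11 G2 and M phase genes passed, and with the block and a correction for GC content and length 4571, 9, 12 and 7. DESeq2 called 5 of the 39, beside 17.6% of all genes (2385 of 13548). A threshold of 0.10 in edgeR also called 5, beside 3118 of the 13548. Requiring a fold of at least 1.5 left 887 genes, 0 of the 39 (11 at an unadjusted p under 0.05, and 3 in limma-voom with no fold required), 2 of the 94 other pathway genes, 0 S phase genes and 0 G2 and M phase genes. With number 3 of both groups left out, 2 S phase and 2 G2 and M phase genes passed. Leaving out each library gave 1128 to 2257 genes, 1 to 4 of the 39, 3 to 11 other pathway genes, 1 to 3 S phase genes and 0 to 2 G2 and M phase genes in edgeR, from fewer samples. Total counts moved the split of all calls to 1562 higher and 767 lower (1123 and 1042 in the main test), and the GC and length correction to 996 and 1403.

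Over 624 alternative values of the 39 fold changes, 574 kept direction and side of the threshold, 17 passed newly, 8 no longer passed and 25 changed sign, all of the last in genes that did not pass. Total counts made Mre11a 0.0454, Fanca 0.0188, Brip1 0.0169, Atrip 0.05 and Xrcc6 0.0269. Without number 3 Brca1 was -0.0025 and Chek1 -0.0172, and with a CPM of at least 1 in 3 libraries Atrip was 0.0019. Leaving out each library, Atr ran from -0.0587 to 0.074, Atrip from -0.0368 to 0.0264, Brca2 from -0.0369 to 0.073, Chek1 from -0.0171 to 0.0605, Fancd2 from -0.031 to 0.0628, Fancl from -0.0365 to 0.157, Mre11a from -0.0597 to 0.0368, Xrcc5 from -0.0331 to 0.1579 and Xrcc6 from -0.0622 to 0.0062. The cause of these changes was not tested. The replicate block changed no other call on a named repair gene than those given beside it. The block with the GC and length correction also called Rad52 (adjusted p = 0.047) and Xrcc4 (0.0433), and Fancc did not pass in it (0.0964). The widest interval of the 39 was that of Lig4, which had the fewest counts, 67 to 142 per library.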
